A study of Homo sapiens with 4 samples.

Results

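Chromosomes 21 and 22 were read in 100-kb windows counted from the first base, and a window was kept when at least 50% of its bases lay in measured blocks of both macroH2A1 libraries. This left 690 windows of 27984 on chromosomes 1 to 22 and X, of which 352 lay on chromosome 21 and 338 on chromosome 22. Chromatin came from IMR90, a line of human fetal lung fibroblasts, which was fixed with formaldehyde, sheared and precipitated with an antibody against macroH2A1. The series has 2 ChIP libraries, named as biological replicates by the submitters, and 2 inputs from the same untreated cells, so every value below describes 1 cell line in 1 condition. For each ChIP replicate the authors divided the genome into segments and gave every segment the log2 of ChIP divided by input. A window's value is the mean of that ratio over the bases measured in both replicates, weighted by length. A value of 0 means as much ChIP as input on the library's own scale, not absence of the protein. No read counts are in the files, so the depth is unknown and the error given is the SD between the 2 replicates. Expression was not measured, so the fibroblast identity could not be checked against marker genes.

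MacroH2A1 is a form of histone H2A that carries a large globular macro domain behind its histone part. It replaces ordinary H2A in nucleosomes over broad stretches of chromatin, is well known from the inactive X chromosome, and is usually scarce over active genes. Chromosomes 21 and 22 are the smallest human autosomes, close to each other in length, and both carry nearly all of their genes on the long arm. They differ in composition, which makes them a natural pair for asking how a broad chromatin mark follows gene density. Chromosome 22 had 13.6 annotated protein-coding genes per measured Mb, rank 3 of 23 chromosomes. Chromosome 21 had 6.65 per Mb, rank 12, so it was gene-poor beside chromosome 22 but not among all chromosomes. Windows with no protein-coding gene made up 40.6% of chromosome 21, 17.8% of chromosome 22 and 33.5% of the 20 other autosomes. The median GC content of a window was 39.6% and 48.1%.

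The 200 bases at the centre of the highest window of each chromosome and of the lowest window of chromosome 21 are printed first, to show what sequence lies at these places; they are single stretches and stand for no contrast in sequence. Capitals mark each CG dinucleotide, and the sequence is the reference (GRCh37, the files' build hg19).
Highest window of chromosome 21, inside an intron of KCNJ15, chr21:39649901-39650100, plus strand: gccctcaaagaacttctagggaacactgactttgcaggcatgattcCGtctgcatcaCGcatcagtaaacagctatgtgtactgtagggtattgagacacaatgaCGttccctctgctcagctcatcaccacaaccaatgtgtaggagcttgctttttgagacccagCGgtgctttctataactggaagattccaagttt
Lowest window of chromosome 21, inside an intron of AGPAT3, chr21:45349901-45350100, plus strand: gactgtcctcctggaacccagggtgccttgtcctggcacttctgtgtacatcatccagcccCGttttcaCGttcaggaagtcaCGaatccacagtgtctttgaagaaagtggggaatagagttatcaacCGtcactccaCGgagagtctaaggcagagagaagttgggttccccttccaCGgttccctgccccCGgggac
Highest window of chromosome 22, inside a lncRNA gene and outside protein-coding genes, chr22:27549901-27550100, plus strand: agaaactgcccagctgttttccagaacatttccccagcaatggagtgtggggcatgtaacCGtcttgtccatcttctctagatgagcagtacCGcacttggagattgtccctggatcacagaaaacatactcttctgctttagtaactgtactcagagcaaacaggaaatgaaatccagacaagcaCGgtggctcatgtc
Over the whole 100 kb, the highest windows held 9.15 CG per kb on chromosome 21 and 10.7 on chromosome 22, and the lowest windows held 25.0 and 24.2. The highest window of chromosome 21 had a log2 ratio of 1.50 in replicate 1 and 1.86 in replicate 2, and the lowest one -2.57 and -2.22. On chromosome 22 the highest window had 1.31 and 1.86, and the lowest -2.65 and -2.59. The CG density of all windows went with their value only weakly: Spearman's rho was -0.09 and 0.11 in the 2 replicates on chromosome 21 (352 windows) and -0.13 and -0.04 on chromosome 22 (338 windows). These 4 windows are therefore the ends of the scale and do not stand for the rest.

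Chromosome 21 carried a higher average macroH2A1 signal than chromosome 22 in both replicates. The mean log2 ratio of chromosome 21 was -0.26 in replicate 1 and -0.26 in replicate 2 (-0.26 ± 0.0008, SD, n = 2). That of chromosome 22 was -0.61 and -0.41 (-0.51 ± 0.14, SD, n = 2). The difference, chromosome 21 minus chromosome 22, was 0.34 in replicate 1 and 0.14 in replicate 2, on average 0.24 ± 0.14 (SD, n = 2). Both differences had the same sign, but their size differed between the libraries by more than the smaller of them, and nearly all of that variation came from chromosome 22. No test is given, since the exact sign-flip test over 2 replicates cannot go below p = 0.5. Among 23 chromosomes, chromosome 21 ranked 7 and 2 by mean log2 ratio in the 2 replicates, and chromosome 22 ranked 22 and 20. The 20 other autosomes together had -0.32 and -0.34. The libraries' own means over all windows were -0.28 and -0.31, so chromosome 21 lay 0.02 and 0.04 above its library's mean and chromosome 22 lay at -0.33 and -0.10 from it.

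**Figure D1:**
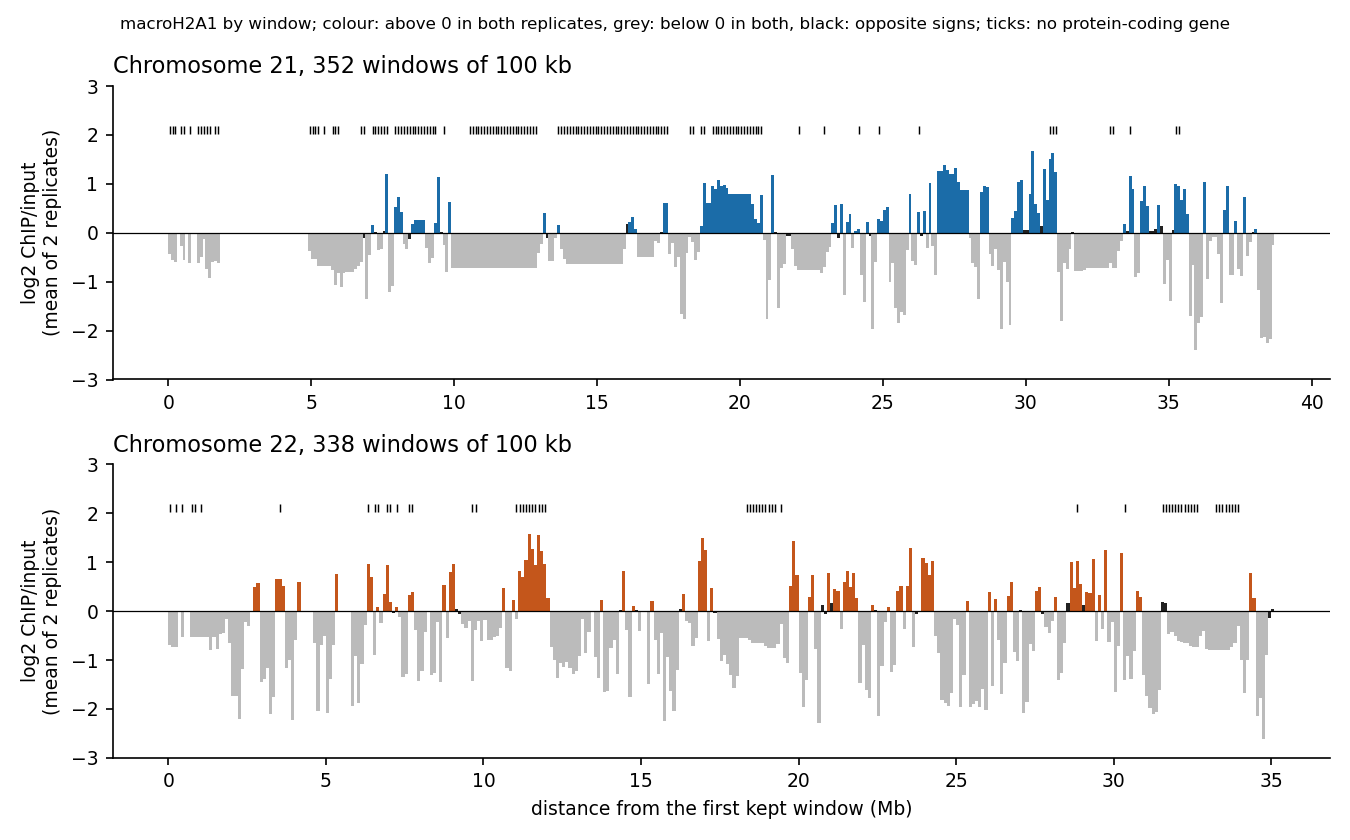
Mean log2 ratio of ChIP over input (vertical axis) of each kept 100-kb window, by distance in Mb from the first kept window of the chromosome (horizontal axis). Coloured bars are above 0 in both replicates (104 on chromosome 21 and 86 on chromosome 22), grey bars below 0 in both, black bars differ in sign, and ticks mark windows without a protein-coding gene; chromosome 21 shows long flat stretches under rows of ticks, and chromosome 22 many narrow deep dips.

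The enriched shares of both chromosomes lay close together, although their means differed. A base was counted as enriched when its segment had a log2 ratio above 0 and a deposited −log10 p of at least 2 in both replicates. By this count 27.7% of chromosome 21 and 27.9% of chromosome 22 were enriched, against 27.6% of the other autosomes. With the gaps inside segments counted as measured, the shares were 24.8% and 28.2%. Single replicates gave 32.7% and 33.1% for chromosome 21 and 30.7% and 34.0% for chromosome 22, so the difference had opposite signs in the 2 libraries (2.07 and -0.92 percentage points). Of the windows, 104 of 352 on chromosome 21 (29.5%) and 86 of 338 on chromosome 22 (25.4%) were above 0 in both replicates, beside 30.7% of all 27984 windows and 28.5% of autosomal ones. Below 0 in both were 223 windows (63.4%) and 229 windows (67.8%), beside 61.9% of all windows and 64.2% of autosomal ones, and 25 and 23 windows had opposite signs in the replicates. Both chromosomes were thus close to the autosomal background in how many windows lay above or below 0. With each library set to a mean of 0, windows above 0 in both made up 39.5% of chromosome 21 and 35.5% of chromosome 22.

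The chromosomes differed most among the lowest windows in both replicates, but in replicate 1 they also differed higher up. Windows below -1 in both replicates numbered 29 on chromosome 21 (8.24%) and 91 on chromosome 22 (26.9%), where 13.6% of autosomal windows were that low. The 10th percentile of windows was -1.04 and -0.97 on chromosome 21 in replicates 1 and 2, and -1.84 and -1.65 on chromosome 22. At the median they gave -0.40 and -0.53 against -0.68 and -0.48, a difference of 0.28 in replicate 1 and -0.05 in replicate 2. At the 75th percentile the chromosomes gave 0.30 and 0.22 against 0.04 and 0.29, so chromosome 21 was higher in replicate 1 and lower in replicate 2. At the 95th percentile they gave 1.06 and 1.13 against 0.92 and 1.04. Chromosome 21 was higher by 0.45 and 0.32 at the 25th percentile, and by 0.33 and 0.10 at the 90th. Split by window value, windows below -1 added -0.17 and -0.15 to the mean of chromosome 21 and -0.49 and -0.42 to that of chromosome 22. The classes are cut on the same values that are averaged, so this split only describes the difference. In replicate 1, windows below -1 made up 0.32 of the difference of 0.34. In replicate 2 that class made up 0.28, more than the whole difference of 0.14. Windows between -1 and 0 added -0.15 there, in the other direction. Windows above 0 added 0.07 and 0.02. Above 1 in both replicates were 17 windows of chromosome 21 (4.83%) and 10 of chromosome 22 (2.96%), beside 3.02% of autosomal windows.

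**Figure D2:**
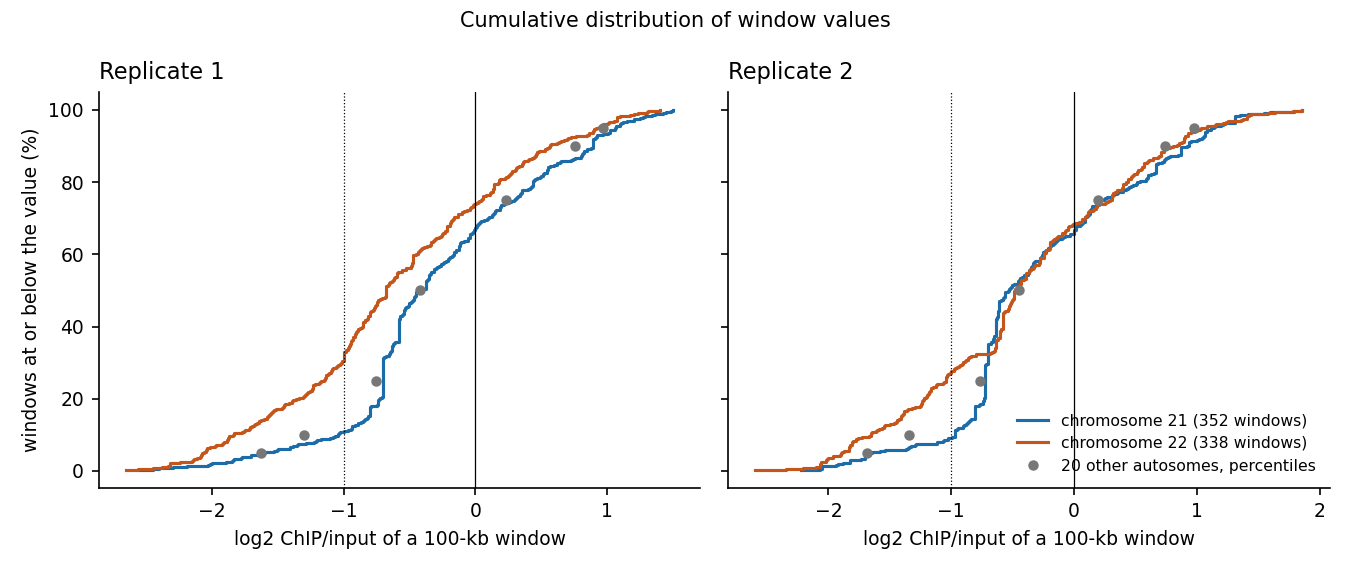
Share of windows in percent (vertical axis) at or below each log2 ratio (horizontal axis), for each replicate, with lines for chromosome 21 (352 windows) and chromosome 22 (338 windows) and grey points for the 5th to 95th percentiles of the 20 other autosomes. The lines lie far apart below -1 (dotted line) in both replicates, and run close together above 0 in replicate 2.

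Low windows were windows with genes. On chromosome 21 none of the 143 windows without a protein-coding gene was below -1 in both replicates, and on chromosome 22 this held for 2 of 60. With at least 1 gene, 29 of 209 windows of chromosome 21 (13.9%) and 89 of 278 of chromosome 22 (32.0%) were that low, beside 20.1% on the other autosomes. The share was larger with more genes on chromosome 22, from 28.7% of windows with 1 gene to 41.4% of those with 5 or more, and the other autosomes went from 14.4% to 41.6%. Chromosome 21 had 7.44% with 1 gene and 28.1% with 3 to 4 genes, and its class of 5 or more held only 8 windows. Windows above 0 in both replicates became rarer in turn: on chromosome 21 they made up 36.4% with 1 gene and 9.38% with 3 to 4, and on chromosome 22 27.8% with 1, 30.4% with 2 and 19.4% with 3 to 4.

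Windows without genes were moderately low on both chromosomes rather than enriched. Their median was -0.37 and -0.56 in the 2 replicates on chromosome 21 and -0.68 and -0.48 on chromosome 22, and 32.2% and 30.0% of them were above 0 in both, where the other autosomes gave 36.1%. Taken over gene-free windows alone, the chromosomes differed by 0.19 in replicate 1 and -0.17 in replicate 2, that is, with opposite signs. Over windows with a gene, chromosome 21 was higher by 0.30 and 0.19. When windows of chromosome 22 were weighted to the gene numbers of chromosome 21, the difference was 0.22 in replicate 1 and 0.02 in replicate 2. Across windows, gene number and log2 ratio had a Spearman's rho of -0.24 and -0.14 on chromosome 21 (352 windows) and -0.21 and -0.19 on chromosome 22 (338 windows). Neighbouring windows share segments and all windows share the library, so these coefficients describe the windows and carry no p. The single-gene class had the widest gap: 9 of 121 windows on chromosome 21 and 31 of 108 on chromosome 22 were below -1 in both replicates.

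**Figure D3:**
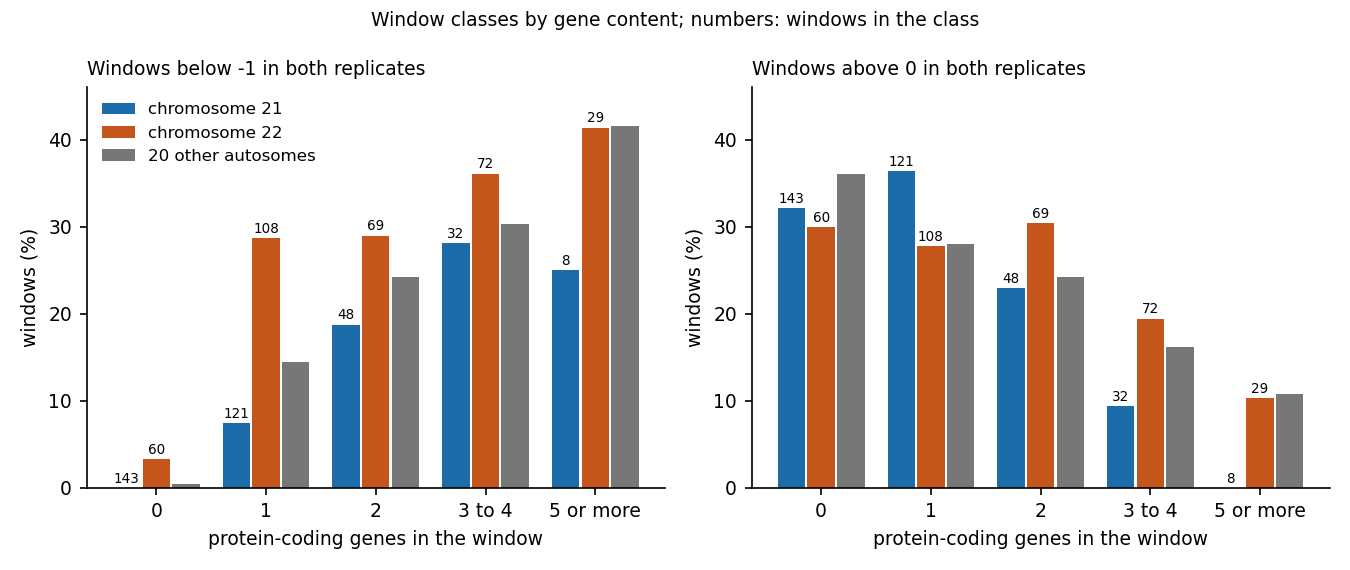
Percent of windows (vertical axes) below -1 in both replicates (left) and above 0 in both (right), by the number of protein-coding genes that overlap the window (horizontal axis), for chromosome 21, chromosome 22 and the 20 other autosomes; numbers over the bars are windows. Deeply low windows are absent (0 of 143) or rare (2 of 60) without genes and reach 41.4% on chromosome 22 with 5 or more.

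GC content did not order the windows the way gene number did. On chromosome 21 the share of windows above 0 in both replicates was 24.0% under 38% GC and 38.6% between 42 and 46%. It was 42.9% between 46 and 50% and 34.4% at 50% or more. On chromosome 22 it was 9.38% between 38 and 42% GC, 29.8% between 46 and 50% and 28.7% at 50% or more. Spearman's rho between GC content and log2 ratio was 0.02 in replicate 1 on both chromosomes. In replicate 2 it was 0.23 on chromosome 21 and 0.13 on chromosome 22. Gene number and GC content themselves had a Spearman's rho of 0.59 on chromosome 21 and 0.43 on chromosome 22. At matched GC content, within windows of at least 38% GC, chromosome 21 was higher than chromosome 22 by 0.37 in replicate 1 and 0.36 in replicate 2. With all windows the matched difference was 0.50 and 0.46, but only 3 windows of chromosome 22 then stand for the 146 windows of chromosome 21 under 38% GC. GC-rich windows were higher in replicate 2 than in replicate 1. In windows of at least 50% GC replicate 2 exceeded replicate 1 in 32 of 32 on chromosome 21 and 109 of 115 on chromosome 22, by a median of 0.31 and 0.33. Under 38% GC it did so in 8 of 146 windows of chromosome 21, with a median of -0.12. Spearman's rho between GC content and replicate 2 minus replicate 1 was 0.68 on chromosome 21 and 0.49 on chromosome 22. The part of GC content in the larger chromosome difference of replicate 1 was not tested beyond the matched values above.

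**Figure D4:**
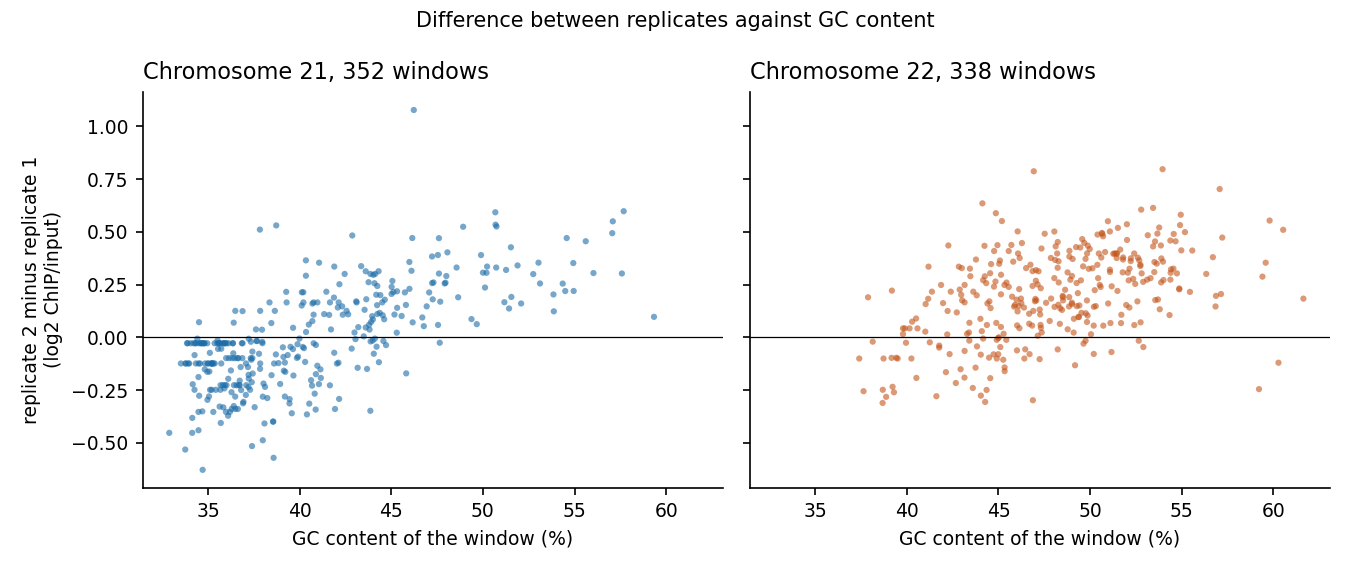
Replicate 2 minus replicate 1 in log2 ratio (vertical axis) against GC content in percent (horizontal axis), 1 point per 100-kb window, for chromosome 21 (352 windows) and chromosome 22 (338 windows). Points under 38% GC lie mostly below 0 and those of at least 50% GC mostly above it.

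The longest runs of one sign lay on chromosome 21. Its longest run of windows above 0 in both replicates covered 2200 kb at chr21:28000001-30200000, with a mean of 0.81 in replicate 1 and 0.66 in replicate 2. It held only ADAMTS1 and ADAMTS5, which encode secreted proteases that cut matrix proteoglycans. The next, of 1100 kb at chr21:36300001-37400000, had 1.10 and 1.18. It overlapped FKSG68 and the annotated span of RUNX1, a transcription factor of blood formation. That span is 1217 kb long, and on the minus strand the run lies upstream of the RefSeq start read below. A run of 500 kb at chr21:17900001-18400000 held no protein-coding gene and was lower, at 0.42 and 0.07. The longest runs below 0 also lay in gene-poor sequence. Over chr21:19300001-22500000 (3200 kb, 3 genes, 35.3% GC) the mean was -0.67 and -0.71, and its lowest window had a mean of -0.71. Over chr21:23100001-25400000 (2300 kb, no gene) it was -0.55 and -0.66. The third such run, of 1900 kb at chr21:14300001-16200000, had -0.70 and -0.79 and held 7 genes, among them LIPI, a lipase gene. Gene-poor sequence was therefore found on both sides of 0, in runs of megabases.

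On chromosome 22 the longest runs of each sign were shorter than those of chromosome 21. Its 45 runs above 0 had a median of 100 kb, and 24 of them were a single window; the 37 runs of chromosome 21 had a median of 200 kb, and 18 were single windows. Runs below 0 had a median of 300 kb on both chromosomes. The longest run above 0 on chromosome 22, of 1000 kb at chr22:27200001-28200000, had 0.89 and 1.18 and touched 1 gene, MN1, a transcriptional co-regulator. A run of 500 kb at chr22:37500001-38000000 was unlike it, with 11 genes and 54.0% GC at 0.44 and 0.74. Among its genes were IL2RB, a receptor chain for interleukins of T and NK cells, and RAC2, a GTPase of blood cells. The third, of 400 kb at chr22:40000001-40400000, had 0.95 and 0.96 and held CACNA1I, a neuronal calcium channel, and GRAP2, an adaptor of T cell signalling. The longest run below 0, of 2600 kb at chr22:47800001-50400000, had -0.92 and -0.51. Another, of 1900 kb at chr22:16800001-18700000, had -0.84 and -0.71 and held 17 genes, IL17RA and BID among them.

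Along each chromosome the level moved up and down and did not follow 1 gradient. In stretches of 5 Mb, chromosome 21 had a mean above 0 in both replicates in 2 of 9 cases, between 25 and 30 Mb (0.18 and 0.01) and 35 and 40 Mb (0.11 and 0.20), where 25 and 26 of 50 windows were above 0. The first of these held 0.28 genes per window and the other 1.46. Between 20 and 25 Mb, with 0.14 genes per window, the mean was -0.54 and -0.65 and 2 of 50 windows were above 0. Its last stretch, from 45 Mb on, was the lowest by mean of both, at -0.86 and -0.54, with 2.55 genes per window and 51.3% GC. All stretches of chromosome 22 were below 0 in both replicates. Its highest was from 25 to 30 Mb, at -0.32 and -0.15, and its lowest from 50 Mb on, with a mean of -0.88 ± 0.18 (SD, n = 2) over 12 windows with 3.67 genes each.

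The 5 highest windows of chromosome 21 fell in 2 places. The windows at chr21:39600001-39700000 (KCNJ15, a potassium channel gene; 1.50 and 1.86), chr21:40300001-40400000 (no gene; 1.49 and 1.79) and chr21:40200001-40300000 (no gene; 1.43 and 1.60) lay on either side of ERG, an ETS transcription factor gene of endothelium. The other 2, at 1.45 and 1.31 and at 1.34 and 1.31, lay within the annotated span of RUNX1, upstream of its RefSeq start. Of its 5 lowest windows, 4 were neighbours at chr21:47600001-48000000, over LSS, MCM3AP, PCNT and DIP2A, from -2.19 to -2.45 in replicate 1 and from -1.88 to -2.06 in replicate 2. LSS is an enzyme of cholesterol synthesis and PCNT a protein of the centrosome. On chromosome 22 the highest windows were 2 without genes in the run at MN1 (1.31 and 1.86; 1.31 and 1.78), 1 in SYN3, a synapsin gene (1.40 and 1.58), 1 at RASD2, a small GTPase gene (1.23 and 1.64), and 1 at PDGFB, a growth factor gene (1.17 and 1.41). The lowest lay over PPP6R2 and SBF1 (-2.65 and -2.59), MYH9, which encodes non-muscle myosin (-2.56 and -2.01), and EIF4ENIF1 with DRG1 and SFI1 (-2.15 and -2.34). The last of these places are DGCR8, a microRNA processing factor, with 3 neighbours (-2.38 and -2.07), and MICAL3 (-2.45 and -1.96). Each of the 10 lowest windows held at least 1 protein-coding gene, and 4 of the 10 highest held none.

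Neighbouring windows could differ by more than 2 log2 units in both replicates. These pairs were chosen for the size of the step, so they are given as a description. On chromosome 21 the largest step went from -1.89 and -1.54 in the window of PWP2 and TRAPPC10 to 0.92 and 1.14 in the next, at chr21:45600001-45700000, which holds ICOSLG, a costimulatory ligand, and DNMT3L, a germ cell cofactor of DNA methylation. A gene-free window at chr21:17000001-17100000 had 1.29 and 1.11, and the next, at the ubiquitin protease gene USP25, had -1.04 and -1.37. DYRK1A, a protein kinase gene, had -1.84 and -1.92 beside KCNJ6, a potassium channel gene, at 0.22 and 0.40. On chromosome 22 the window of WNT7B, a developmental ligand, had 1.02 and 1.37 and the gene-free window after it -1.55 and -1.25. The window of CDC45 and UFD1 had -1.92 and -1.61, and the next, which reaches CLDN5, a tight junction gene of endothelium, had 0.57 and 0.73.

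Genes were read over their annotated span where at least 50% of it was measured in both replicates, which held for 229 of 229 protein-coding genes on chromosome 21 and 436 of 450 on chromosome 22. On chromosome 21, 35 genes (15.3%) were above 0 in both replicates and 172 (75.1%) below, and on chromosome 22, 90 (20.6%) and 307 (70.4%). Of all 19517 measured genes, 22.8% were above 0 in both replicates and 69.7% below. The median gene lay at -0.70 and -0.80 on chromosome 21 and at -1.37 and -1.11 on chromosome 22, beside -0.87 and -0.75 over all chromosomes. The median of chromosome 21 is also the value shared by 31 of its 49 keratin-associated protein genes, which build the matrix of hair. The 49 genes ran from -0.89 to 0.07 in replicate 1 and from -0.80 to -0.001 in replicate 2, and 0 of 49 were above 0 in both. Without them the median of chromosome 21 was -0.95 and -0.89, and 35 of 180 genes (19.4%) were above 0 in both.

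The 9 gene lists were made with earlier results of these data known, so their counts are a description. Housekeeping genes were low almost without exception. The list held 40 genes of respiration, translation, splicing, DNA replication and stress response on the 2 chromosomes. Of these, 39 were below 0 in both replicates and 0 above, beside 69.7% and 22.8% of all genes. The list's median was -2.12 and -1.83. RPL3, a protein of the large ribosomal subunit (chr22:39708887-39716394), had -3.59 in replicate 1 and -3.12 in replicate 2. EWSR1, an RNA-binding protein gene (chr22:29663998-29696515), had -2.85 and -2.84. PFKL, the liver form of the glycolytic enzyme phosphofructokinase (chr21:45719934-45747259), had -2.92 and -2.76. These 3 were the lowest of the list and lay far below the median gene in both libraries. The highest 3 were CDC45, a replication helicase factor (-0.75 and 0.07), POLR2F, an RNA polymerase subunit (-0.61 and -0.40), and CHEK2, a checkpoint kinase (-0.88 and -0.70). SOD1, the cytosolic superoxide dismutase of chromosome 21, had -1.98 and -1.53.

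The genes listed as matrix, with the intracellular myosin MYH9 among them, had the second lowest median. Of 10 genes, 8 were below 0 in both replicates and 0 above, beside 69.7% and 22.8% of all genes. The median was -1.96 and -1.29. COL6A1 and COL6A2, which encode chains of the collagen VI of connective tissue, lay at -3.29 and -2.80 (chr21:47401684-47424964) and at -2.93 and -2.81 (chr21:47518026-47552762). MYH9 had -3.04 and -2.45 over its span at chr22:36677326-36784055. TIMP3, an inhibitor of matrix proteases, had -1.51 and -1.60, although SYN3, in which it is nested, lay at 0.61 and 0.72. The genes whose sign differed were ADAMTS1 (-2.06 in replicate 1 and 0.87 in replicate 2) and ADAMTS5 (-0.20 and 0.87). Both are in the long run above 0, where replicate 2 has 1 value over both genes and replicate 1 has finer segments. LGALS2, a galectin gene, had -0.13 and -0.36, and LGALS1, another, -3.59 and -1.39. The median segment spanned 21.7 kb (replicate 1) or 48.0 kb (replicate 2) on chromosome 21, and 18.7 or 34.9 kb on chromosome 22, so short genes can share a value with their surroundings.

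The leukocyte list split into high and low members. Expression was not measured, so the list was not checked for genes that are also active in other cells. Of 19 listed receptors and proteins of leukocytes, 8 were above 0 in both replicates (42.1%, beside 22.8% of all genes), 6 were below and 5 differed in sign, with a median of -0.03 and 0.48. ITGB2, the beta chain of the leukocyte integrins (chr21:46305868-46351904), was the highest gene of all lists at 1.45 and 1.81. GRAP2 had 1.02 and 1.05, and IL2RB 0.58 and 1.15. The 3 lowest of the list were receptor chains. IFNAR1, a chain of the type I interferon receptor (chr21:34696692-34732170), had -2.00 and -1.67, and IFNGR2, a chain of the interferon gamma receptor, -1.71 and -1.70. IL17RA, the receptor for interleukin 17 on chromosome 22, had -2.00 and -1.74. IL10RB, in the cluster of the interferon receptors, had -1.10 and -1.05, and IFNAR2 -0.51 and -0.48. ICOSLG, on the same chromosome, had 0.61 and 1.01.

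Antiviral families were divided within their clusters. Of 16 genes, 4 (25%) were above 0 in both replicates and 8 below, a share above 0 near the 22.8% of all genes. The APOBEC3 genes, which encode DNA cytosine deaminases and stand in a row on chromosome 22, ran from APOBEC3H (0.31 and 0.78) and APOBEC3A (0.26 and 0.58) at the ends to APOBEC3G (-1.12 and -1.52), APOBEC3F (-1.55 and -1.04) and APOBEC3C (-1.93 and -1.04) inside. The APOL genes, relatives of the apolipoprotein that kills trypanosomes, ran from APOL4 (0.91 and 1.23) to APOL2 (-1.59 and -1.96), whose spans lie within 100 kb of each other. Among 7 genes listed as cytokines and growth factors, which include the apoptosis gene BID, 3 were above 0 in both and 4 below. Of all genes, 22.8% were above 0 in both and 69.7% below. PDGFB was highest (1.22 and 1.24), then S100B, a calcium-binding protein of glia (0.40 and 1.00), and OSM (0.18 and 0.60). LIF, a cytokine of the OSM family encoded beside it, was lowest (-2.81 and -1.91), followed by BID (-2.17 and -1.66), and MIF (-1.60 and -1.71).

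Neural, mucosal and junction genes lay on both sides of 0. Of 21 genes of neural adhesion, synapse and ion channels 11 (52.4%, beside 22.8% of all genes) were above 0 in both replicates and 9 below, with a median of 0.15 and 0.15. The genes of this list were long, with a median span of 152 kb beside 28.1 kb for all genes. The part of gene length in these values was not tested. KCNJ15 (1.24 and 1.42), CACNA1I (0.97 and 1.24) and KCNJ4, a potassium channel gene (0.75 and 0.96), were highest. SYNJ1, a phosphatase of synaptic vesicles that is also found elsewhere (-1.88 and -2.10), and APP, the amyloid precursor (-1.56 and -1.82), were lowest. Of 16 mucosal, lens and muscle genes 8 (50%, beside 22.8% of all genes) were above 0 in both and 4 below. The other 4, TFF1, TFF2, TFF3 and TMPRSS3, differed in sign and shared 1 value (-0.13 and 0.21), so they are not separate measurements. The list's median was 0.07 and 0.33. CRYAA, a lens crystallin (0.73 and 1.70), UMODL1 (1.02 and 1.23) and the crystallin CRYBB1 (0.93 and 1.26) were highest, and TMPRSS15, the intestinal enteropeptidase (-0.70 and -0.73), was lowest, in the flat gene-poor run of chromosome 21. CRYBB3 (-0.69 and -0.20) and MYO18B, a myosin gene (-0.63 and -0.24), came next. Of 8 junction genes 4 (50%, beside 22.8% of all genes) were above 0 in both and 4 below. CLDN14 (0.61 and 1.07), CLDN5 (0.67 and 0.73) and CXADR, a virus receptor at junctions (0.50 and 0.28), were highest, and IGSF5 (-0.94 and -0.64), CLDN8 and CLDN17 (both -0.70 and -0.80) were lowest.

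Transcription factor genes followed no single pattern. Of 23 measured genes 7 (30.4%, beside 22.8% of all genes) were above 0 in both replicates and 15 below, with a median of -1.33 and -0.89. By chromosome, 6 of 12 on chromosome 21 and 1 of 11 on chromosome 22 were above 0. Of all measured genes there, 15.3% and 20.6% were above 0 in both. TBX1, a factor of the pharyngeal arches (chr22:19744226-19771116), had 0.92 and 1.35. AIRE, which drives expression of tissue antigens in the thymus (chr21:45705721-45718531), had 0.98 and 0.91, and PFKL, whose span begins just after it, was the third lowest housekeeping gene. RUNX1 had 0.86 and 0.93 over its annotated span of 1217 kb, most of which lies upstream of the RefSeq start read here. The bases just before its RefSeq start (chr21:36260997-36261246), inside that span, were low, at -2.01 and -1.91. They lie outside the run above 0 at chr21:36300001-37400000. OLIG1 and OLIG2, factors of oligodendrocytes, shared 0.56 and 0.95. ATF4, a stress response factor (-2.70 and -2.56), ZBED4 (-2.54 and -2.23) and MAFF (-2.32 and -2.19) were lowest.

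**Figure D5:**
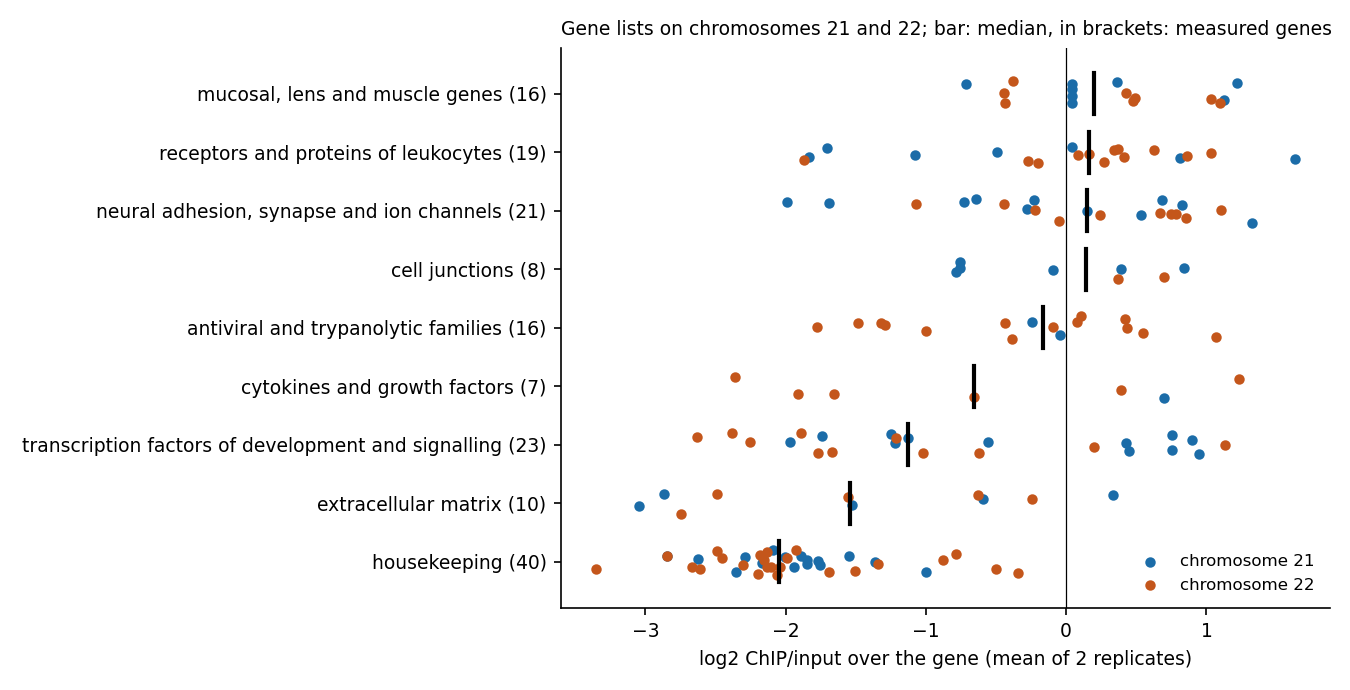
Log2 ratio of ChIP over input of each measured gene, as the mean of 2 replicates (horizontal axis), for the 9 gene lists (rows, with the number of measured genes), coloured by chromosome, with a bar at the median. All 40 housekeeping genes lie below 0, and members of the neural, leukocyte, junction and mucosal lists lie on both sides of it.

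The sequence just upstream of genes was read where the RefSeq promoter (250 bases before the start, GRCh38.p14 table) had exactly 1 match in GRCh37 on its chromosome and was measured, which gave 404 stretches. The stretches printed are those of the list genes with the highest and lowest value over the gene's span on each chromosome, among genes whose stretch overlaps no annotated exon of any transcript; capitals mark CG.
Upstream of UMODL1, chr21:43482736-43482985, plus strand: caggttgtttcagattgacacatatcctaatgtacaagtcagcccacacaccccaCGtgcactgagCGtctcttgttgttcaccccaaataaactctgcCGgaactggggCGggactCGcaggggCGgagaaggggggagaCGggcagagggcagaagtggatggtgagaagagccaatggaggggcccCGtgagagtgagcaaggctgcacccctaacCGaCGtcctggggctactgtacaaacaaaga
Upstream of COL6A2, chr21:47517776-47518025, plus strand: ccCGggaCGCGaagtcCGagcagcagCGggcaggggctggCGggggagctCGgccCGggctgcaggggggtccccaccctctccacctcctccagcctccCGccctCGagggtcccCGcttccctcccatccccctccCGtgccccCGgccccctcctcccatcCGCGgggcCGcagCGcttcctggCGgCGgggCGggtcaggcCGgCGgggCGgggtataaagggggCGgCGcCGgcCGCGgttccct
Upstream of TBX1, chr22:19743976-19744225, plus strand: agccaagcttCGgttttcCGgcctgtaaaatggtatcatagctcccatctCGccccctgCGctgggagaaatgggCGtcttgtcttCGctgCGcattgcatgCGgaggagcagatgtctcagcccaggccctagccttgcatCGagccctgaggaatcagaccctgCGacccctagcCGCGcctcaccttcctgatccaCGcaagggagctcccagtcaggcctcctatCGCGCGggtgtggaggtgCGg
Upstream of MRTFA, chr22:41032724-41032973, minus strand: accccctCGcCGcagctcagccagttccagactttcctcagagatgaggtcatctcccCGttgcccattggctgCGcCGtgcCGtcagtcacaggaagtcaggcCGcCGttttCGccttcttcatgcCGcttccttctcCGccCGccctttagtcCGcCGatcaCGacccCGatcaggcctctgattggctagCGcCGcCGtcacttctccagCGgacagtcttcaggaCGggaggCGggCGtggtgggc
They held 10 CG at UMODL1 (segments at 1.16 and 2.38), 28 at COL6A2 (-2.93 and -2.81), 17 at TBX1 (1.03 and 1.45) and 23 at MRTFA, a cofactor of serum response genes (-1.53 and -1.81). In all, 63 of 404 stretches (15.6%) were above 0 in both replicates. On chromosome 22, 14 of 31 stretches with 0 to 4 CG (45.2%) were above 0 in both, and 18 of 150 with 20 or more (12%). Of all 257 stretches there, 19.1% were above 0 in both. The medians of these classes in the replicates were -0.18 and -0.15 against -1.95 and -1.64. On chromosome 21 the stretches with 20 or more CG had medians of -1.68 and -1.70. Of these, 6 of 58 (10.3%) were above 0 in both, beside 9.52% of all 147 stretches there. There the poorest class, with 0 to 4 CG, had 3 of 53 above 0 and medians of -0.70 and -0.80, and 38 of those 53 were keratin-associated protein genes. Stretches with 10 to 19 CG had medians of -1.79 and -1.70 on chromosome 21 and -1.77 and -1.35 on chromosome 22. By median, CG-rich stretches therefore lay low on both chromosomes, and CG-poor ones near 0 on chromosome 22. The share above 0 did not set the CG-rich stretches of chromosome 21 apart from all stretches there. That comparison includes the keratin-associated protein genes, of which 0 of 49 were above 0 in both over their span. Shares without that family were not computed, so the comparison cannot show whether CG-rich stretches differ from the others. With 5 to 9 CG, 3 of 11 stretches there were above 0 in both, and with 10 to 19 CG, 2 of 25. Segments are far longer than these stretches, so the value belongs to the surroundings as much as to the printed bases.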

How the data were processed

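MacroH2A1 ChIP-seq of IMR90 cells was read from 1 segmentation file per ChIP replicate; the 2 inputs entered only through the authors' ratio. The authors' deposited log2 ratio and deposited −log10 p-value per segment were used as given; the log base is not stated and was taken as 2, since 2 raised to the value averaged 1.01 and 0.995 over measured bases. CASAVA 1.7 and hg19 are named in the submitters' processing notes; the aligner, duplicate treatment, segmentation program and scaling: not given in the sources used here. Depth is unknown, so counting error cannot be given.

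Blocks of both replicates were intersected, and regions were averaged by length in Python 3.11.15 with numpy 2.4.6 and pandas 2.3.3; window averages were checked on simulated segmentations. Genes are GENCODE release 44 mapped to GRCh37, the files' build. The windows, the 9 gene lists (161 entries) and the comparisons were chosen with earlier results of these data known. Windows named are the 5 highest and lowest per chromosome and the 3 longest runs; genes named by rule are the 3 highest and lowest per list, and a few others were added after their values were seen, as were the steps between windows, the splits by window value and GC content and the upstream stretches. Some items these rules select are not reported here. No test is given, because an exact test over 2 replicates cannot go below p = 0.5. The submitters call the libraries biological replicates; windows are not replicates. Alternatives were other window sizes, origins and minimum coverage, whole segments, the median, each replicate alone, trimmed ends, centring, matching on genes or GC and stricter enrichment.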

Additional observations from a re-analysis of the deposited data

How the results depend on the processing

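Of 130 values under alternatives, 79 stayed within the spread between replicates, 49 moved by more and 2 changed sign. Part of this tally was fixed in advance, so it does not measure robustness. A chromosome mean or difference from 1 replicate alone always stays within that spread, and centring cannot change the difference. Shares above 0 or enriched in 1 replicate cannot be lower than shares in both. For values that moved the cause was not tested. The chromosome 21 mean moves easily because its replicates differ by so little. The chromosome 21 mean was -0.26 with 50-kb windows, -0.26 with 1-Mb windows, -0.26 at a minimum of 25%, -0.27 over whole segments with gaps, -0.47 as the median, -0.19 over each replicate's own blocks and -0.23 without 5 Mb at each end. Centred on the library mean, chromosome 21 was at 0.030, which reverses its sign, and chromosome 22 at -0.21. The mean difference between the chromosomes moved to 0.48 matched on GC content, to 0.11 ± 0.23 (SD, n = 2) as the median over windows and to 0.010 in windows without a protein-coding gene; under the last 2 the replicates had opposite signs (0.28 and -0.05, 0.19 and -0.17). Averaged over replicates it was above 0 under each alternative run. Windows above 0 in both replicates on chromosome 21 made up 31.9% at 50 kb, 20.0% at 1 Mb, 31.8% shifted by 50 kb, 26.6% over whole segments, 30.8% without the ends and 39.5% centred. On chromosome 22 they made up 8.82% at 1 Mb, 30.5% without the ends and 35.5% centred. Enriched bases of chromosome 21 were 24.8% over whole segments (chromosome 22 28.2%), 24.6% at a −log10 p of at least 5 and 21.5% above a log2 ratio of 0.5, and those of chromosome 22 were 23.9% and 19.8% under the last 2 settings.

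With 1 replicate alone, windows above 0 ranged from 32.7% to 33.5% on chromosome 21 and from 26.0% to 31.7% on chromosome 22, and enriched bases from 32.7% to 33.1% and from 30.7% to 34.0%. Read in a 5-kb window at the start site, list medians were -0.27 for cytokines, 0.35 for junctions, -0.29 for transcription factors, 0.22 for neural genes and -1.78 for housekeeping genes, and the genes above 0 in both were 30.0% for matrix, 34.8% for transcription factors and 57.1% for neural genes. With 1 replicate alone, the leukocyte median ranged from -0.033 (without replicate 2, a reversed sign) to 0.48, that of junctions from 0.106 to 0.112, and that of housekeeping genes from -2.12 to -1.83. The genes above 0 then ranged from 42.1% to 68.4% for leukocytes, 31.2% to 43.8% for antiviral genes, 0% to 20.0% for matrix, 30.4% to 34.8% for transcription factors, 52.4% to 57.1% for neural genes, 50% to 75% for mucosal genes and 0% to 2.5% for housekeeping genes. Lists with 1 replicate, GC matching from 38% and splits by gene presence were chosen after seeing the data. No paired analysis was possible because the inputs enter only through the authors' ratio and no result comes from a test between samples.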

Other observations

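The longest segment of replicate 1 on chromosome 21 runs over bases 1 to 4675502, where the reference has no known base (100% N). It has a deposited log2 ratio of 1.10 and a −log10 p of 7.15. Replicate 2 has no block there, so no window of the comparisons uses it. Windows that were measured in part but not kept numbered 5 on chromosome 21 and 14 on chromosome 22; a further 125 and 161 had no base in blocks of both replicates. The kept windows held 99.6% and 98.8% of the shared bases. The windows nearest the limit inside it, with 50.0% and 50.4% measured, were at -0.12 and -0.16 and at 0.85 and 1.15 in the replicates. Nearest outside it, with 47.7% and 45.7%, were windows at -0.53 and -0.66 and at -0.80 and -0.61.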
